A study of Rattus norvegicus with 9 samples.

Results

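Rat bone marrow mesenchymal stem cells (MSCs) kept for 3 days with epidermal growth factor (EGF), basic fibroblast growth factor (bFGF) and insulin-like growth factor 1 (IGF-1) were compared with untreated MSCs. The members are the 3 libraries with the treatment label EGF+bFGF+IGF1 and the 3 untreated MSC libraries, 6 of the 9 libraries of the series, chosen by their treatment labels alone. The other 3 libraries, from cells given EGF and bFGF without IGF-1, enter one comparison at the end. All cells were bone marrow MSCs at passage 3. The study's methods take MSCs from 3 Sprague-Dawley rats and describe induction with EGF and bFGF in NeuroCult NS-A medium on ultra-low attachment plates. For the EGF+bFGF+IGF1 cells, the medium, the plates and the doses are not given in the sources used here. No library of cells moved to such a culture without growth factors was analysed here, so effects of the growth factors, the medium and suspension culture cannot be told apart. A stranded mRNA kit was used for the libraries, which were read on a NextSeq500. The labels number the replicates without tying the IGF-1 libraries to single rats, so p-values measure the spread between these libraries.

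EGF binds the EGF receptor, bFGF binds FGF receptors, and IGF-1 binds the IGF-1 receptor. All are receptor tyrosine kinases, which activate the ERK cascade and the PI3K and AKT pathway. ERK signalling induces immediate early genes such as the Egr family, and AKT keeps FoxO transcription factors out of the nucleus. In adherent culture, MSCs spread on the plate, build contractile actin fibres and divide. In serum-free suspension with EGF and bFGF, they gather into spheres that resemble neurospheres, the culture form of neural progenitor cells (NPCs).

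Expression is given as FPKM, fragments normalised to transcript length and to the mapped total of the library, as deposited. Values of a group are listed in the order of replicates 1, 2 and 3. A difference is a log2 fold change of the treated cells minus MSCs, on the scale of log2(FPKM + 0.1) after scaling between libraries, with its standard error (SE). That scale understates the change of genes below about 1 FPKM. A call needed both an adjusted p no higher than 0.05 (limma, Benjamini-Hochberg) and a log2 fold change no smaller than 1 in either direction.

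The depth implied by the deposited confidence intervals was 42.5 to 48.6 M reads in the EGF+bFGF+IGF1 libraries and 42.8 to 51.2 M reads in the MSC libraries. Distances on the log2 scale were 93.2 to 105 among the treated libraries, 106 to 119 among the MSC libraries, and 160 to 183 between the groups. Of the variance, 50.7% lay on the first principal component, which separated the groups. The second, with 14.9%, chiefly separated MSC replicate 2 from MSC replicate 3. The share of reads outside annotated transcripts counts only unannotated transcripts that overlap no annotated exon on the same strand. It was 6.82%, 6.81% and 7.49% in the treated and 3.93%, 4.02% and 3.72% in the MSC libraries, by the reads the confidence intervals imply. That measure was chosen after seeing the data, and by FPKM times length the mean shares were 62.4% and 41.6%. The groups did not overlap (two-sided exact permutation test, p = 0.1, the smallest that 3 against 3 allows). Of these, unannotated transcripts of a single exon within genes took 2.09% to 2.38% in the treated libraries and 0.583% to 0.77% in MSCs. The part of this share in the gene results was not tested.

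**Figure D1:**
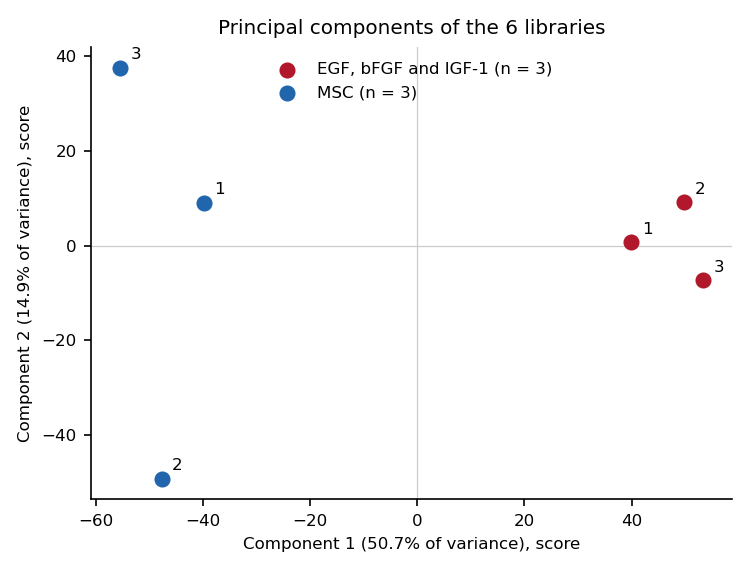
Scores of the 6 libraries on the first and second principal components of log2 expression over the 500 genes of highest variance, with the replicate number beside each point. The 3 EGF+bFGF+IGF1 libraries lie together on the right, and the 3 MSC libraries lie on the left, spread along the second component.

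Of 14152 genes tested, 1635 were called higher (11.6%) and 1406 lower (9.93%) in the EGF+bFGF+IGF1 cells. Together 3041 genes were called (21.5%), and in 3031 of them the groups did not overlap. Over all genes tested, an unadjusted p under 0.05 was reached by 48.8%, the groups did not overlap in 54.5%, and the median log2 fold change was 0.04. In bulk RNA, fewer cells of a type and less RNA per cell cannot be told apart. Symbols were known for 1846 of the tested genes. Among 960 genes whose symbol came from a table in gene ID order, 12.4% were called higher and 11.2% lower. Among the 886 other named genes the shares were 43.5% and 40.4%, because those names come from tables of genes that changed between EGF and bFGF cells and the same MSC libraries. The counts over lists below are therefore no independent evidence of direction, and they are to be read against these shares.

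**Figure D2:**
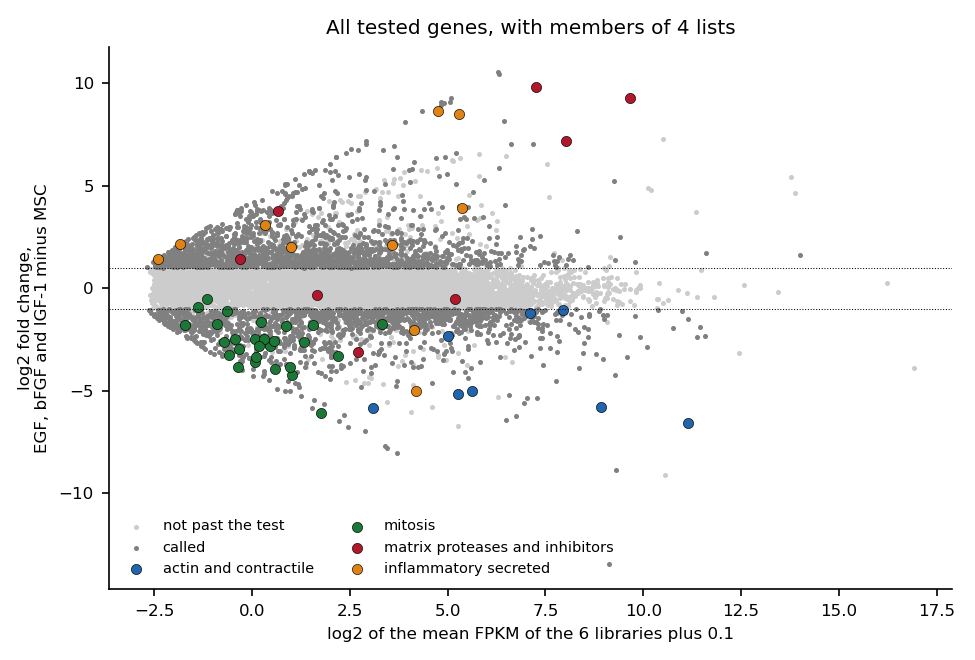
Log2 fold change (treated minus MSC) of each of the 14152 tested genes against the log2 of its mean FPKM, with dotted lines at a change of 1 in either direction. Tested members of the contractile list (blue) and the mitosis list (green) lie below 0, while the proteases Mmp10, Mmp3 and Mmp13 (red) and the inflammatory genes Pla2g2a and Lcn2 (orange) lie among the highest.

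Of 18 receptors and adaptors of the EGF, FGF and IGF families, 2 could be matched to a name, and 1 of them, Igf2r, was tested. The EGF receptor and the IGF-1 receptor had no name in the sources. Igf2r, the receptor that clears IGF-2 and sorts lysosomal enzymes, rose from 49.4, 50.3 and 48.1 FPKM in MSCs to 180, 192 and 226 FPKM (log2 fold change 1.92 ± 0.13, adjusted p = 0.000155). The treated libraries were all above every MSC library. Fgfr4 was listed at 0.117, 0.155 and 0.0729 FPKM after treatment and at 0, 0.0121 and 0 FPKM in MSCs, too low to be tested.

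Of 8 ligands and binding proteins tested, 3 were called higher, 2 were called lower and 3 did not pass. Fgf9 rose from 0.215, 0.124 and 0.174 to 2.41, 1.62 and 2.46 FPKM (log2 fold change 2.98 ± 0.27, adjusted p = 0.000419). Fgf10, which signals from mesenchyme to epithelium, rose from 4.06, 3.03 and 3 to 14.9, 13 and 18.7 FPKM (2.08 ± 0.19, adjusted p = 0.00046). Both FGF ligands were low in every MSC library and higher in every treated one. Tgfa, a ligand of the EGF receptor, fell from 8.17, 8.25 and 12.6 to 1.37, 1.64 and 1.42 FPKM (-2.69 ± 0.25, adjusted p = 0.000498). Igfbp6, which binds IGF-2 in preference to IGF-1, fell from 12, 5.53 and 20.4 to 2.03, 1.63 and 1.8 FPKM (-2.63 ± 0.49, adjusted p = 0.00667). Igfbp7, a secreted IGF-binding protein of low affinity, was called higher, from 119, 140 and 67.2 to 348, 230 and 224 FPKM (1.24 ± 0.27, adjusted p = 0.013). That call ended without MSC replicate 3. The other EGF receptor ligands did not pass: Hbegf had a log2 fold change of -0.91 ± 0.15, Areg of 1.38 ± 0.50 and Ereg of 0.16 ± 0.38.

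Among ERK response genes, 4 of 6 tested were called higher and none lower. Of the 3 named through the table in ID order, 1 was called higher and 2 did not pass. Egr3, an immediate early transcription factor, was at 0.94, 0.49 and 1.33 FPKM in MSCs and 8.53, 9.23 and 8.36 FPKM after treatment (3.11 ± 0.36, adjusted p = 0.00114). Egr2 rose from 2.03, 3.59 and 2.23 to 11.9, 9.68 and 11.1 FPKM (1.97 ± 0.22, adjusted p = 0.00106). Egr1 rose from 10.9, 10.7 and 5.97 to 26.2, 21.4 and 23 FPKM (1.30 ± 0.20, adjusted p = 0.00371). The 3 treated libraries lay close together for each Egr gene. Etv4, an ETS factor induced by FGF signalling, was at 0.795, 1.54 and 0.693 FPKM in MSCs and 6.22, 3.69 and 2.62 FPKM after treatment (1.85 ± 0.39, adjusted p = 0.0106). When annotated transcripts alone were summed, the call of Etv4 ended and the direction of Egr3 turned to -0.22. Etv5, a close relative of Etv4, had a log2 fold change of -0.05 ± 0.11, and Ier3 one of 0.11 ± 0.19.

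Of genes that FoxO factors are known to activate when AKT is low, 6 of 7 tested were called higher and none lower. Of the 3 named through the table in ID order, 2 were called higher and 1 did not pass. Txnip, which binds thioredoxin and limits glucose uptake, rose from 1.8, 2.07 and 1.96 to 236, 366 and 257 FPKM (7.02 ± 0.18, adjusted p = 1.16e-05). The lowest treated library was above the highest MSC library by far more than the spread of either group. Pdk4, a kinase that shuts off pyruvate dehydrogenase, rose from 0.293, 0.331 and 0.238 to 3.43, 3.94 and 6.51 FPKM (3.48 ± 0.28, adjusted p = 0.000296). Bcl2l11, which encodes the apoptosis inducer Bim, was at 1.27, 2.09 and 2.98 FPKM in MSCs and 14.2, 25.2 and 16.7 FPKM after treatment (3.03 ± 0.37, adjusted p = 0.00147), a call that ended with annotated transcripts alone. Sod2, the mitochondrial superoxide dismutase, rose by 2.49 ± 0.20 to 102, 128 and 164 FPKM. Bcl6, a transcriptional repressor, rose by 2.14 ± 0.17 to 16.6, 22.1 and 24.6 FPKM. Sesn1, an inhibitor of mTORC1, was called higher by 1.21 ± 0.16, but not with a pseudocount of 1 or with annotated transcripts alone. Ccng2, an atypical cyclin, had a log2 fold change of 0.53 ± 0.17 (adjusted p = 0.0519).

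**Figure D3:**
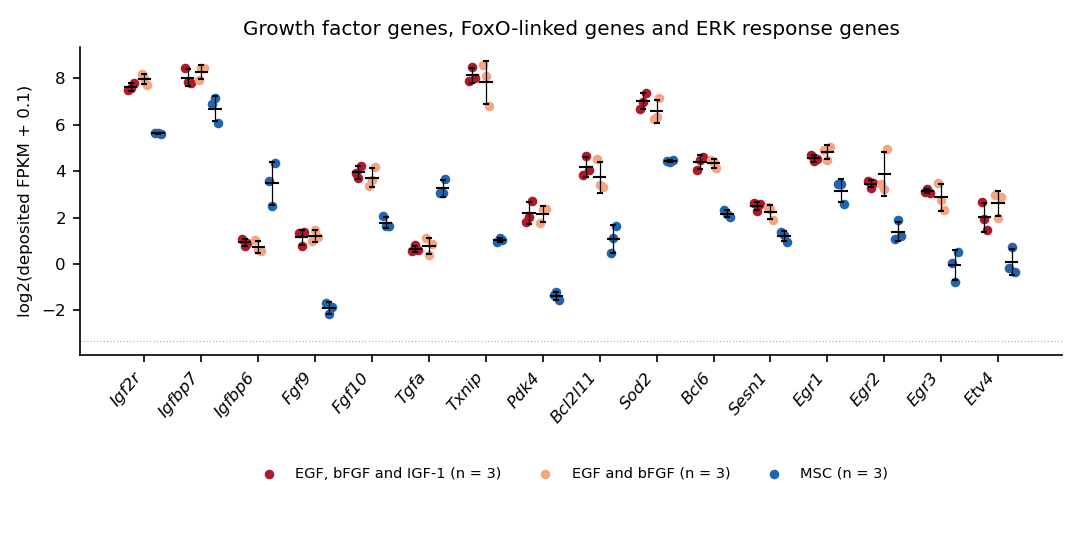
Log2(FPKM + 0.1) of growth factor, FoxO-linked and ERK response genes in the 3 libraries of each group, with the mean (horizontal bar) and SD (error bar), and a dotted line at 0 FPKM. Only genes called against MSCs are shown, so the separation of the EGF+bFGF+IGF1 libraries from MSCs follows from that choice. The EGF+bFGF+IGF1 libraries (red) and the EGF and bFGF libraries (light orange) lie above MSCs (blue) for 14 of the 16 genes. They lie below MSCs for Igfbp6 and Tgfa.

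RefSeq promoters of the GRCr8 build were searched over the 250 bases before the start of the gene, for letters only. The FoxO motif GTAAACA (either strand) was in 1 of 6 promoters of the FoxO list and in 3.21% of 33469 promoters of all genes. It was also in 1 of 3 ERK response and 1 of 5 cholesterol promoters, and in none of 24 mitosis and 6 contractile promoters. The CArG box, the binding motif of serum response factor, was in 2 of 3 ERK response promoters, those of Egr1 and Egr2, and in 1.5% of all promoters. None of the 6 contractile promoters searched held a CArG box in this window. Tagln and Myl9 were not among them, as the promoter set had no entry for them, nor for Txnip of the FoxO list. Egr3, Etv4 and Ier3 of the ERK list were not among the promoters searched either. The AP-1 motif TGANTCA, found in 6.34% of all promoters, was in none of the promoters of these lists. The promoters of Bcl2l11 and Egr2 are shown as members of these lists that hold a match. Capitals mark GTAAACA and the CCAAT box (on either strand, ATTGG on the shown strand) in Bcl2l11, and the CArG box and the CCAAT box in Egr2. The last base shown is the base before the start.
Bcl2l11 (chr3:135819792-135820041, plus strand): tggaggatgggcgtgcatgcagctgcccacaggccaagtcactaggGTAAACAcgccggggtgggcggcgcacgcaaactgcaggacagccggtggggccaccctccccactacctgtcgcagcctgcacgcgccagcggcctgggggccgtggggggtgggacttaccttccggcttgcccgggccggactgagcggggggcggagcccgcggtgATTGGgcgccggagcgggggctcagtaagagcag
Egr2 (chr20:21054442-21054691, minus strand): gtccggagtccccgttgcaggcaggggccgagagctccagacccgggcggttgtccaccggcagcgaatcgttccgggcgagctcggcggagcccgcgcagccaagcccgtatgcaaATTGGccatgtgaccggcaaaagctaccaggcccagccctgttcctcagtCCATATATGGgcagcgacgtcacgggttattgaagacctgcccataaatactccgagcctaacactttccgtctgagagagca

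Actin and contractile genes were lower in the treated cells without exception among those tested: 8 of 8 were called lower, 3 of them named through the table in ID order. Tagln, the actin-bundling protein transgelin of smooth muscle, fell from 4237, 4280 and 4799 to 110, 40.3 and 27.4 FPKM (-6.57 ± 0.49, adjusted p = 0.000277). Myl9, a myosin light chain that regulates contraction, fell from 991, 947 and 887 to 33.6, 15.7 and 11.2 FPKM (-5.79 ± 0.38, adjusted p = 0.000149). In both, MSC libraries agreed closely, whereas treated replicate 1 kept the highest level of its group. Replicate 1 was the highest treated library for 6 of the 8 genes, against 35.5% of all genes tested. Pln, phospholamban of the calcium pump, fell from 65, 84.7 and 74.3 to 3.41, 1.78 and 1.56 FPKM. Casq2, a calcium-binding protein of the sarcoplasmic reticulum, fell from 17.1, 19 and 14.3 to 0.168, 0.32 and 0.152 FPKM. Csrp2, a LIM-domain protein of smooth muscle, fell by 5.04 ± 0.48 on the log2 scale, and nonmuscle myosin Myh10 also fell (-2.33 ± 0.14). Cnn3 and Tagln2, which are less tied to muscle, fell by 1.20 ± 0.12 and 1.09 ± 0.10, and their calls ended with quantile normalisation and with annotated transcripts alone.

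Integrin and adhesion genes moved both ways, with 2 called higher, 2 lower and 2 not past the test. Itgb1, the beta chain shared by most matrix-binding integrins, fell from 1044, 1217 and 996 to 253, 223 and 228 FPKM (-2.30 ± 0.12, adjusted p = 6.23e-05). Ilk, a pseudokinase at integrin tails, was at 148, 146 and 143 FPKM in MSCs and 77.5, 59.9 and 72.2 FPKM after treatment (-1.16 ± 0.14, adjusted p = 0.00124), a call that ended with quantile normalisation. Itga10, the alpha chain of a collagen receptor of cartilage, rose from 0.0892, 0.0869 and 0.112 to 5.05, 2.39 and 2.1 FPKM (3.89 ± 0.36, adjusted p = 0.000467). Cass4, a scaffold of focal adhesions, was called higher by 1.61 ± 0.44, but lost its call without any 1 of 4 libraries. Itgb5 and paxillin (Pxn) had log2 fold changes of 0.41 ± 0.34 and -0.31 ± 0.17.

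Mitosis genes formed the largest list with 1 direction: 24 of 27 tested were called lower, none higher, and all 4 that were named through the ID order were lower. Their log2 fold changes ran from -6.09 to -1.64, with a median of -2.74. Kif20a, a kinesin of cytokinesis, was listed at 0 in all 3 treated libraries and at 7.36, 6.91 and 5.47 FPKM in MSCs. Kif23, another kinesin of the midbody, was at 4.08, 4.35 and 2.86 FPKM in MSCs and 0.208, 0.0748 and 0.0662 FPKM after treatment (-4.26 ± 0.30, adjusted p = 0.000182), a call that ended with annotated transcripts alone. Cdca3, which triggers mitotic entry, fell from 3.18, 2.9 and 2 to 0.0967, 0.0753 and 0.0913 FPKM (-3.93 ± 0.21, adjusted p = 8.31e-05). Cenpa, the histone H3 variant of centromeres, fell from 1.43, 1.3 and 1.33 to 0.0159, 0 and 0 FPKM (-3.83 ± 0.21, adjusted p = 7.94e-05). No treated library reached the lowest MSC library for any of these 4. Cdk1, the kinase that drives entry into mitosis, kept a higher level than the others, with 6.1, 4.22 and 3.75 FPKM against 18.1, 17.4 and 9.79 FPKM in MSCs (-1.73 ± 0.26), but its call also ended there. The 3 members that did not pass were Kif18a, Mybl2 and Cenpw, with log2 fold changes of -1.10 ± 0.38, -0.90 ± 0.23 and -0.52 ± 0.23. In MSCs, replicate 3 was the highest library for none of the 27 genes, although it was the highest for 25.4% of all genes tested. With annotated transcripts alone 15 members were called lower.

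The promoters of mitotic genes are known for CCAAT boxes and for the cell cycle genes homology region (CHR), through which the DREAM complex represses them in cells that do not divide. The CHR letters TTTGAA, on either strand, were in 10 of 24 promoters of tested mitosis genes (41.7%) and in 16.2% of all promoters. CCAAT, on either strand, was in 18 of 24 (75%) and in 34% of all promoters. It was also in 3 of 3 ERK response, 4 of 6 FoxO, 3 of 6 contractile and 1 of 5 cholesterol promoters. No test was made of these shares, and a match does not show a binding site. The promoters of Kif23, Cenpa and Cdca3, described above, are shown with TTTGAA and CCAAT (or ATTGG, on the other strand) in capitals. Kif23 and Cenpa hold 1 CHR match each, and Cdca3 holds 3 CCAAT matches and no TTTGAA.
Kif23 (chr8:71320585-71320834, minus strand): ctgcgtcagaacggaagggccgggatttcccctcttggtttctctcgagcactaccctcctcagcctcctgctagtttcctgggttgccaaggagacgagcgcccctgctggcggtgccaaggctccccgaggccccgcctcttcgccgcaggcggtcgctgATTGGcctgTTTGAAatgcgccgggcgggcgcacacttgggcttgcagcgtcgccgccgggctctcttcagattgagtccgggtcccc
Cenpa (chr6:31431553-31431802, minus strand): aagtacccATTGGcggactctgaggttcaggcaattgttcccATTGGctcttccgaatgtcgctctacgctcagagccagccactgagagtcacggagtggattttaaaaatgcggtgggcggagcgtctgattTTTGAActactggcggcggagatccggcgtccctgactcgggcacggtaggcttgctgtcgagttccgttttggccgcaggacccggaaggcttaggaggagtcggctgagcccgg
Cdca3 (chr4:159320953-159321202, plus strand): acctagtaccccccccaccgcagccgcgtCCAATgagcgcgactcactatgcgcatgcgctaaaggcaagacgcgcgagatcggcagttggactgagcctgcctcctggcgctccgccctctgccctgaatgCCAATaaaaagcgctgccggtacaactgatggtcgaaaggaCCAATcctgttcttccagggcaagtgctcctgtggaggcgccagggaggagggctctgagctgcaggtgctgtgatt

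Of 12 DNA replication genes tested, 2 were called lower, none higher, and 10 did not pass. The lists differ in where their names come from: 9 of these 12 genes, but 4 of the 27 mitosis genes, were named through the ID order. Mcm4, a subunit of the replicative helicase, was at 4.14, 5.55 and 5.09 FPKM after treatment and 6.05, 6.99 and 4.11 FPKM in MSCs (-0.27 ± 0.19, adjusted p = 0.301). Rfc1, the large subunit of the clamp loader, had a log2 fold change of 0.54 ± 0.12. Gins2, of the same helicase complex, had one of 0.03 ± 0.16. The called members, E2f7 and Chaf1b, were low in every library, at most 0.221 and 1.07 FPKM (-1.36 ± 0.23 and -1.34 ± 0.37). Both calls ended with a pseudocount of 1, and that of Chaf1b also ended with annotated transcripts alone and without any 1 of 5 libraries, all but MSC replicate 3. The difference between the replication and mitosis lists was not tested. Of 4 inhibitors of the cell cycle tested, 2 were called higher. Gas1, a membrane protein of growth arrest, was at 1.41, 0.0654 and 0.256 FPKM in MSCs and 21.8, 33.6 and 48.3 FPKM after treatment (6.13 ± 0.81, adjusted p = 0.00252). Btg1, an antiproliferative factor, rose from 52.9, 67.1 and 67.3 to 155, 180 and 157 FPKM (1.31 ± 0.16, adjusted p = 0.00139). Btg2 and Tob1, of the same family, had log2 fold changes of 0.79 ± 0.21 and 0.61 ± 0.11 and did not pass. Btg2 was called higher with quantile normalisation (1.03), with annotated transcripts alone (1.04) and without MSC replicate 3 (1.01).

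**Figure D4:**
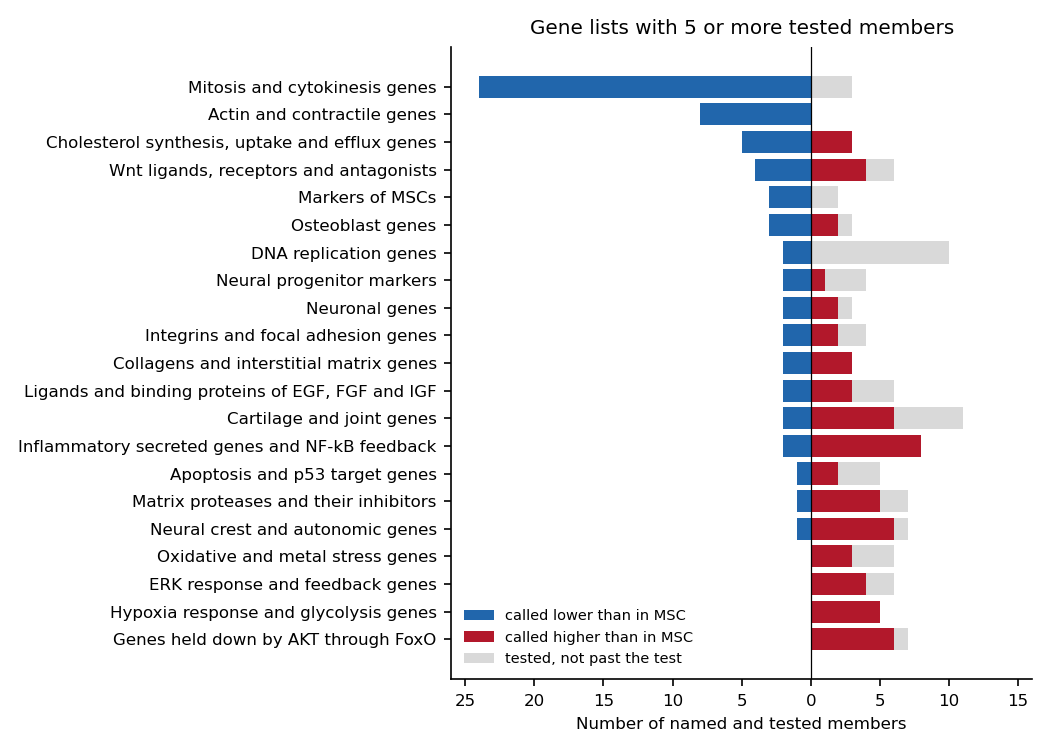
Number of members called lower (blue, left of 0) and called higher (red), and of members tested that did not pass (grey), for the gene lists with 5 or more tested members. The mitosis list has 24 lower and 3 not past the test, the contractile list 8 lower, and the FoxO, hypoxia, ERK and oxidative stress lists have none lower.

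Mmp10 and Mmp3, secreted proteases that degrade matrix, were among the genes with the largest increases. Mmp3 (stromelysin 1) rose from 1.96, 2.29 and 2.66 to 1142, 1572 and 2112 FPKM (9.26 ± 0.26, adjusted p = 1.25e-05). Mmp10 (stromelysin 2) was at 0.195, 0.287 and 0.12 FPKM in MSCs and 145, 490 and 284 FPKM after treatment (9.79 ± 0.43, adjusted p = 4.32e-05), a call that ended with annotated transcripts alone. Mmp13, a collagenase, rose from 4.73, 5.87 and 0.978 to 311, 488 and 737 FPKM (7.18 ± 0.68, adjusted p = 0.000966). Mmp9, a gelatinase, rose from 0.129, 0.0866 and 0.0947 to 3.86, 2.44 and 2.29 FPKM (3.76 ± 0.26, adjusted p = 0.000184). Per length, Mmp3 was thus the most abundant of these proteases in every treated library. Of the 8 protease and inhibitor genes tested, 5 were called higher, 1 lower and 2 did not pass. The lower one was Mmp23, which fell from 12.2, 10.9 and 11.7 to 1.35, 1.28 and 1.39 FPKM (-3.11 ± 0.14). Adamts1 and Adamts4, proteases of aggrecan and versican, had log2 fold changes of -0.55 ± 0.18 and -0.32 ± 0.19. They were the only 2 of these genes named through the table in ID order.

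Of 5 collagen and interstitial matrix genes, 3 were called higher and 2 lower. Dcn (decorin) rose from 1.13, 1.06 and 0.997 to 63.6, 187 and 332 FPKM (7.01 ± 0.57, adjusted p = 0.000438). Lum (lumican) rose from 11.2, 12.8 and 5.34 to 119, 159 and 226 FPKM (4.05 ± 0.34, adjusted p = 0.000343). For Dcn the treated libraries were spread widely, with replicate 1 lowest, and still none came near an MSC library. Thbs2, a matricellular protein, fell from 282, 279 and 289 to 124, 72.6 and 75.2 FPKM (-1.78 ± 0.23, adjusted p = 0.00163). Loxl4, which cross-links collagen, was called lower by 2.52 ± 0.31, but not with annotated transcripts alone. Col6a1 was just past the threshold (1.02 ± 0.16) and lost its call without treated replicate 1 or MSC replicate 2.

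Of 13 cartilage and joint genes, 6 were called higher, 2 lower and 5 did not pass. Of the 5 named through the table in ID order, 2 were called higher and 3 did not pass. Prg4, the joint lubricant lubricin, was listed at 0 in all 3 MSC libraries and at 29.3, 58.2 and 91.3 FPKM after treatment. Ucma, a secreted cartilage protein, was listed at 0 in all MSC libraries and at 1.3, 6.08 and 18.1 FPKM. Frzb, a secreted Wnt antagonist of joint cartilage, rose from 0.585, 0.552 and 0.328 to 133, 172 and 215 FPKM (8.12 ± 0.23, adjusted p = 1.25e-05). Cilp, of the cartilage intermediate layer, rose from 2.37, 2.47 and 3.35 to 163, 114 and 80.3 FPKM (5.26 ± 0.30, adjusted p = 9.66e-05). Replicate 3 was the highest treated library for Prg4, Ucma and Frzb, and replicate 1 for Cilp. The fibrillar collagen gene Col11a1 was called lower by 2.91 ± 0.31, but not with annotated transcripts alone, and Col9a2 was called lower by 2.36 ± 0.48. Fmod (fibromodulin), a small proteoglycan of collagen fibrils like decorin and lumican, had a log2 fold change of -0.09 ± 0.31 (adjusted p = 0.848). Sox9, the transcription factor that defines chondrocytes, was at 5.34, 9.39 and 4.2 FPKM after treatment and 5.35, 3.49 and 4.51 FPKM in MSCs (0.34 ± 0.32, adjusted p = 0.432). With annotated transcripts alone 3 members were called higher.

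Wnt genes moved in both directions, with 4 called higher, 4 lower and 2 not past the test. Beside Frzb, the receptor gene Fzd9 was called higher, from 0.0585, 0.0355 and 0.0177 to 0.97, 0.58 and 0.538 FPKM (2.46 ± 0.28, adjusted p = 0.00111). Nkd2, an inhibitor of Wnt signalling that binds Dishevelled, fell from 20.4, 17.3 and 12.2 to 3.38, 2.46 and 2.11 FPKM (-2.69 ± 0.22, adjusted p = 0.000322). Wnt16 was at 0.574, 0.506 and 0.589 FPKM in MSCs and 0.013, 0 and 0 FPKM after treatment (-2.69 ± 0.22). The calls of Fzd9 and Wnt16 ended with a pseudocount of 1. Among BMP and TGF-beta genes, 2 of 4 were called lower, and both encode secreted factors. Bmp3, which opposes osteogenic BMPs, fell from 12, 12.3 and 15.3 to 0.527, 0.405 and 0.286 FPKM (-4.82 ± 0.25, adjusted p = 7.2e-05). Fst, follistatin of activin, was called lower by 2.23 ± 0.17, but not with annotated transcripts alone. Tgfbr1, the type I receptor of TGF-beta, was called higher by 1.15 ± 0.20, but not without MSC replicate 3.

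Inflammatory secreted genes and feedback genes of NF-kB were mostly higher, with 8 of 10 called higher and 2 lower. The 2 named through the table in ID order were called higher. Lcn2, the iron-sequestering lipocalin, rose from 0.0281, 0.145 and 0.132 to 45.3, 72.9 and 116 FPKM (8.48 ± 0.41, adjusted p = 5.51e-05). Pla2g2a, a secreted phospholipase A2, rose from 0, 0 and 0.0715 to 36.5, 44.6 and 78.9 FPKM (8.65 ± 0.37, adjusted p = 3.96e-05). Ccl7, a chemokine for monocytes, rose from 4.77, 4.54 and 4.6 to 63, 72 and 98 FPKM (3.92 ± 0.18, adjusted p = 5.03e-05). Replicate 3 was the highest treated library for all of these. Ptges, which makes prostaglandin E, rose by 3.06 ± 0.24. C3 and Cxcl2 were listed at 0 in all MSC libraries and at under 0.5 FPKM after treatment. Nfkbia, which encodes the inhibitor that NF-kB induces against itself, rose from 4.2, 3.89 and 4.63 to 22.9, 19 and 17 FPKM (2.09 ± 0.17). Tlr2, a receptor of bacterial lipoproteins, was chosen by size and rose from 0.0936, 0.093 and 0.0868 to 24.4, 21.2 and 27.5 FPKM (6.92 ± 0.17, adjusted p = 1.11e-05). In the other direction, Il33, a nuclear alarmin of the IL-1 family, fell from 33.7, 42 and 30.1 to 1.1, 0.949 and 1.14 FPKM (-5.0 ± 0.15, adjusted p = 1.26e-05). Tnfaip6, a hyaluronan-binding protein that MSCs secrete, was called lower by 2.05 ± 0.47, but not without treated replicate 2 or with annotated transcripts alone.

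**Figure D5:**
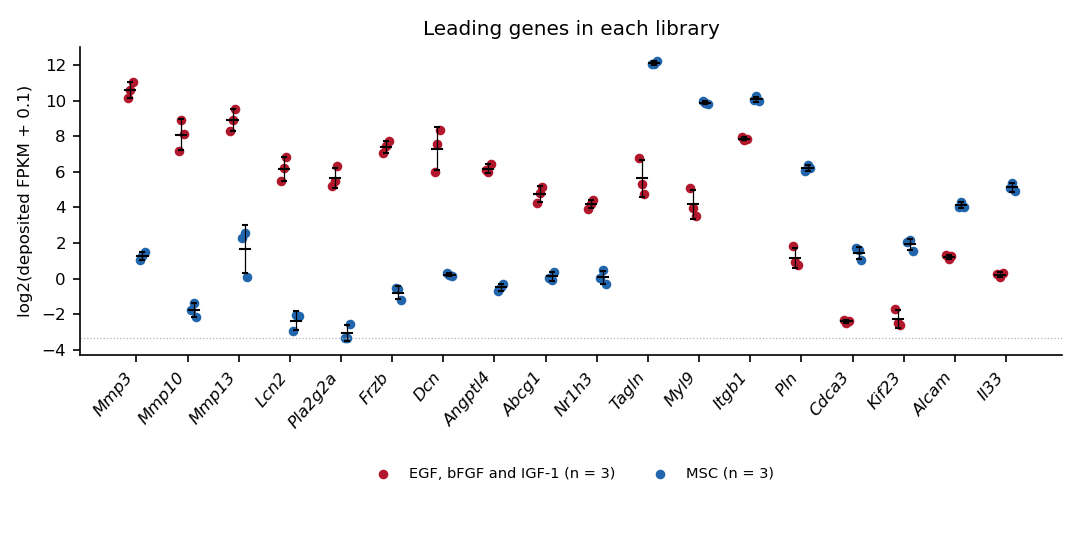
Log2(FPKM + 0.1) of leading genes in the 3 EGF+bFGF+IGF1 libraries (red) and the 3 MSC libraries (blue), with the mean (horizontal bar) and SD (error bar), and a dotted line at 0 FPKM. From Mmp3 to Nr1h3 every treated library lies above every MSC library, and from Tagln to Il33 every treated library lies below.

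Of 28 cholesterol genes listed, 8 were tested, and these split by role, with 5 called lower and 3 higher. Only 1 of the 8, Abcg1, was named through the table in ID order. The 3 that rose serve efflux: the transporter Abcg1, from 0.928, 0.847 and 1.21 to 18.9, 28 and 35.2 FPKM (4.53 ± 0.28, adjusted p = 0.000131), the transporter Abca1, from 5.52, 6.71 and 6.93 to 57.4, 69.6 and 90.2 FPKM (3.37 ± 0.21), and Nr1h3, which encodes the oxysterol sensor LXR alpha that activates both, from 0.93, 1.28 and 0.721 to 15.1, 18.5 and 21.2 FPKM (4.03 ± 0.21). Of the 5 lower genes, 4 encode enzymes of sterol synthesis or its precursors. Cyp51 fell from 64.3, 74.9 and 45.2 to 6.51, 9.89 and 6.47 FPKM (-3.08 ± 0.21, adjusted p = 0.000168). Acat2, Fdft1 and Pmvk fell too (-2.74 ± 0.13, -1.74 ± 0.14 and -1.35 ± 0.12). Srebf2, the master regulator of this pathway, fell from 18.7, 16.4 and 12.9 to 5.45, 6.27 and 6.96 FPKM (-1.43 ± 0.15, adjusted p = 0.000735). Abca1 lost its call with annotated transcripts alone.

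All 5 tested genes of the hypoxia and glycolysis list were called higher, each named through the tables of changed genes. These were Adm, Cox4i2, Egln3, Epas1 and Ndufa4l2, and no gene of a glycolytic enzyme was among them. Cox4i2, the subunit of cytochrome oxidase induced by low oxygen, rose from 0.542, 0.76 and 0.298 to 45.5, 58 and 51.2 FPKM (6.34 ± 0.25, adjusted p = 2.98e-05). Ndufa4l2, a mitochondrial target of HIF, was at 0, 0.449 and 0 FPKM in MSCs and 20.5, 26.4 and 13.4 FPKM after treatment (6.74 ± 0.69), a call that ended in the fit of all 9 libraries. Its longest annotated transcript has 249 bases, a length at which FPKM are unreliable. Egln3, the oxygen-sensing prolyl hydroxylase, was listed at 0 in all MSC libraries and at 0.61, 2 and 1.25 FPKM after treatment. Adm, the vasodilator adrenomedullin, was just past the threshold (1.08 ± 0.26) and lost its call under 6 alternatives. Epas1 (HIF-2 alpha) was called higher by 1.8 ± 0.18, but its direction turned to -0.71 with annotated transcripts alone. Angptl4, a lipase inhibitor that PPAR factors and hypoxia induce and the one adipocyte gene tested, rose from 0.508, 0.622 and 0.715 to 68.5, 64.2 and 86.7 FPKM (6.59 ± 0.20, adjusted p = 1.26e-05). Of 6 oxidative and metal stress genes, 3 were called higher, but neither of the 2 named through the table in ID order. Fth1, the heavy chain of ferritin, rose from 214, 244 and 140 to 906, 1270 and 1300 FPKM (2.47 ± 0.21, adjusted p = 0.000368). Gclc, which limits glutathione synthesis, rose from 6.92, 7.77 and 7.61 to 30.9, 40 and 29.7 FPKM (2.06 ± 0.15). The metallothionein gene Mt3 was called higher by 1.87 ± 0.36, but Prdx6, Slc7a11 and Sod1 did not pass, with log2 fold changes of -0.96 ± 0.16, -0.76 ± 0.41 and 0.51 ± 0.17.

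Because the labels call these cells MSC-derived NPCs, markers of neural progenitors were examined. Of 28 markers, 7 had a name in the sources, and the names did not include Sox2 or Pax6. Nes (nestin) was at 0.331, 0.282 and 0.268 FPKM after treatment and 0.152, 0.145 and 0.0534 FPKM in MSCs, and did not pass (0.85 ± 0.26, adjusted p = 0.041). Fabp7, of radial glia, was listed at 0 in all 6 libraries. Msi1 had a log2 fold change of 0.10 ± 0.32 and the Notch target Hes1 one of 0.01 ± 0.35. With annotated transcripts alone Hes1 was called higher (1.21, limma adjusted p = 0.0167). Hes3 was called higher, from 0, 0.0529 and 0.119 to 1.46, 1.75 and 0.591 FPKM (3.00 ± 0.48, adjusted p = 0.00383). Vim (vimentin), which MSCs and neural progenitors share, fell from 3015, 2625 and 2560 to 801, 826 and 630 FPKM (-1.96 ± 0.14, adjusted p = 0.000221). Prom1 (CD133) was at 0.655, 0.482 and 0.639 FPKM in MSCs and under 0.02 FPKM in each treated library (-2.64 ± 0.23), a call that ended with a pseudocount of 1. Of the neuronal genes, Rbfox3 was listed at 0 in all 6 libraries and Dcx was under 0.05 FPKM in each. Dclk3 and Scn7a were called higher and Negr1 lower, the former pair at under 0.5 FPKM in all libraries and without a call at a pseudocount of 1. Slc17a6, a glutamate transporter of neurons, was listed at 0 in all treated libraries and at 0.958, 0.81 and 0.697 FPKM in MSCs. The glial gene Gfap was at most 0.0237 FPKM. Aldoc, an aldolase of astrocytes and other cells, rose from 6.65, 8.48 and 4.36 to 21.6, 33 and 24.6 FPKM (1.95 ± 0.23), and S100b had a log2 fold change of 0.23 ± 0.16.

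Of neural crest and autonomic genes, 6 of 8 tested were called higher and 1 lower, again all named through the tables of changed genes. Ret, the receptor of GDNF family ligands, rose from 0, 0.00454 and 0 to 0.692, 2.76 and 2.24 FPKM (4.06 ± 0.49, adjusted p = 0.00131). Ednrb, the endothelin receptor of crest precursors, was at 0.165, 0.264 and 0.0476 FPKM in MSCs and 1.75, 7.25 and 10.9 FPKM after treatment (4.4 ± 0.69, adjusted p = 0.00366). Gbx2, a homeobox factor, rose from 0.642, 0.449 and 0.617 to 2.11, 2.42 and 3.64 FPKM (1.97 ± 0.28, adjusted p = 0.0025). Snai1, a factor of epithelial-mesenchymal transition, rose from 17.3, 9.93 and 10.2 to 33.2, 35.3 and 37.6 FPKM (1.45 ± 0.21). Sema3a, a repulsive guidance cue, was called higher by 2.73 ± 0.28. The calls of Ednrb and Sema3a ended with annotated transcripts alone, where 2 members of the list were called higher. Foxs1, a forkhead factor of pericytes and sensory neurons, was called lower by 1.18 ± 0.22, but not with quantile normalisation.

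Of 5 named markers of MSCs, 3 were called lower and 2 did not pass. Alcam (CD166) fell from 16.2, 19.6 and 16.2 to 2.38, 2.01 and 2.3 FPKM (-2.99 ± 0.14, adjusted p = 5.03e-05). Mcam (CD146), also of pericytes, fell from 31.2, 35.4 and 19.7 to 12.5, 9.64 and 8.13 FPKM (-1.57 ± 0.22). Cxcl12, the chemokine of the marrow niche, fell from 8.66, 5.39 and 14.9 to 2.36, 3.23 and 2.74 FPKM (-1.74 ± 0.40). Cd200 and Nes did not pass, with log2 fold changes of -0.29 ± 0.27 and 0.85 ± 0.26. Thy1, Cd44 and Nt5e, the defining markers, had no name in the sources and were not analysed here. Of 6 osteoblast genes, 2 were called higher, 3 lower and 1 did not pass. Dlx3, a homeobox factor, rose from 0.123, 0.0595 and 0.0818 to 4.66, 6.46 and 7.78 FPKM (5.0 ± 0.26, adjusted p = 7.53e-05). Tnfrsf11b, the decoy receptor osteoprotegerin, was at 119, 143 and 80.2 FPKM in MSCs and 50.5, 21.8 and 12.8 FPKM after treatment (-2.28 ± 0.49), a call that ended with annotated transcripts alone. Dmp1, a matrix protein of osteocytes, was called higher (2.77 ± 0.36), but not with a pseudocount of 1 or with annotated transcripts alone. Ibsp (-1.41 ± 0.37) and Dlx5 (-1.23 ± 0.38) were called lower, and their calls ended under 8 and 10 alternatives. Mepe had a log2 fold change of 0.40 ± 0.34.

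Markers of other cells that a marrow culture can hold were examined next. Ptprc (CD45) was at most 0.0142 FPKM and Aif1 at most 0.0403 FPKM in the 6 libraries, and Cybb at most 0.087 FPKM. Cd68, a lysosomal protein abundant in macrophages, rose from 0.502, 0.305 and 0.226 to 8.93, 9.23 and 14.4 FPKM (4.56 ± 0.29, adjusted p = 0.000138). Spi1, the factor that directs macrophage development, stayed below 0.3 FPKM, with a call (1.48 ± 0.25) that ended with a pseudocount of 1. The summed level of the 6 named haematopoietic markers was 9.38 to 14.9 FPKM in treated libraries and 0.305 to 0.608 FPKM in MSCs, nearly all of it Cd68, and 3 of them were under 0.1 FPKM in all 6 libraries. Of 2 named endothelial markers, 1 was tested. This was Flt1, the VEGF receptor of endothelium, listed at 0 in all treated libraries and at 1.42, 1.7 and 0.78 FPKM in MSCs, and called lower. The summed level of the 2 markers was 0.22, 0.0983 and 0.103 FPKM in treated libraries, all of it from the other marker. In MSCs it was 1.42, 1.72 and 0.805 FPKM, nearly all of it Flt1. Adipoq, the adipocyte hormone, was at most 0.0166 FPKM.

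Of 6 apoptosis and p53 target genes tested, 2 were called higher, Bcl2l11 and Sesn1 described above, 1 was called lower and 3 did not pass. Gadd45b, a stress response gene, fell from 47.7, 30.3 and 54.4 to 17.8, 12.9 and 13.7 FPKM (-1.63 ± 0.28, adjusted p = 0.00505). Bak1, Bcl2 and Ccng1 did not pass, with log2 fold changes of -0.70 ± 0.11, -0.26 ± 0.26 and 0.05 ± 0.13. Of 3 genes of ER stress and the amino acid response, 1 was called lower. Chac1, a glutathione-degrading enzyme of the amino acid response, was called lower by 2.15 ± 0.42, but not in the fit of all 9 libraries. Atf3 and Sdf2l1 did not pass (0.78 ± 0.20 and -0.48 ± 0.56), but Sdf2l1 was called lower without MSC replicate 3 (-1.17). Outside the lists, the size rule also named Apln, the ligand of the apelin receptor, which rose from 0, 0.0175 and 0.014 to 16.6, 16.3 and 11.8 FPKM (7.02 ± 0.21, adjusted p = 1.26e-05). Hvcn1, which conducts protons across the plasma membrane, was listed at 0 in all MSC libraries and at 19.5, 13.1 and 12.3 FPKM after treatment. Among the decreases it named Nmu, a neuropeptide, from 3.75, 3.84 and 6.11 to 0, 0 and 0.0857 FPKM (-5.26 ± 0.37, adjusted p = 0.000184), and Prnd, the prion-like protein doppel, from 3.82, 3.79 and 2.51 to 0, 0 and 0.0307 FPKM (-5.01 ± 0.23, adjusted p = 5.03e-05). Fhl5, a cofactor of CREM, fell from 3.45, 4.81 and 3.63 to 0.0907, 0.159 and 0 FPKM (-4.62 ± 0.37, adjusted p = 0.000298). Counting only genes with an annotated transcript of 300 bases or more, 24 genes were listed at 0 in all MSC libraries with a mean of at least 1 FPKM after treatment, and 10 showed the reverse.

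The treated cells were last compared with cells given EGF and bFGF but no IGF-1, in a fit of all 9 libraries over 14695 genes. With IGF-1, 5 genes were called higher (0.034%) and 4 lower (0.0272%), together 0.0612%, none of them with a symbol. An unadjusted p under 0.05 was reached by 663 genes (4.51%), and the groups did not overlap in 9.64%. Of the 9 called genes, 6 have no annotated transcript of 300 bases, a length at which FPKM are unreliable. ENSRNOG00000016033 was at 1.41, 1.38 and 1.22 FPKM with IGF-1 and listed at 0 in the 3 libraries without it and in MSCs. Of named genes expressed with IGF-1, those of lowest unadjusted p were Apln, Cox4i2 and Ret, chosen after their values were seen. Apln was at 5.57, 7.89 and 4.95 FPKM without IGF-1 and 16.6, 16.3 and 11.8 FPKM with it (1.26 ± 0.22, adjusted p = 0.237). Cox4i2 was at 23.4, 24.4 and 13.4 FPKM without and 45.5, 58 and 51.2 FPKM with it (1.36 ± 0.28, adjusted p = 0.471). Ret was at 0.409, 0.272 and 0.0945 FPKM without and 0.692, 2.76 and 2.24 FPKM with it (2.38 ± 0.51, adjusted p = 0.501). In all 3 genes the libraries with IGF-1 were above every library without it, but choosing genes by lowest p favours such separation. None passed the adjusted threshold in this fit, and Ret passed it without EGF+bFGF+IGF1 replicate 1 (2.94, limma adjusted p = 0.0484). Among members of the 30 gene lists that had a symbol and were tested, none was called between these groups. The 9 called genes have no symbol, so whether any of them belongs to a list could not be told. For Igf2r the values without IGF-1 were 291, 260 and 213 FPKM (log2 fold change with minus without, -0.36 ± 0.14). For Txnip they were 385, 273 and 111 FPKM, for Tagln 47.5, 32.8 and 138 FPKM, and for Mmp3 805, 1383 and 881 FPKM (0.29 ± 0.39, -0.29 ± 0.64 and 0.64 ± 0.28). A p that misses the threshold does not show that the 2 treatments act alike: in simulated data with this spread, this fit called 61 of 100 genes given a log2 change of 1.5 and 79 of 100 given one of 3.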

How the data were processed

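Per the labels, libraries were made with the TruSeq Stranded mRNA kit and processed with CASAVA 1.8, bcl2fastq, TopHat, Bowtie2, Cufflinks and Cuffdiff. The paper's methods name the build rn6 and an Ensembl release for an alignment with STAR. Those steps differ from the tools in the labels, so the build of the deposited files was taken as unknown, and no file coordinates are printed. The authors deposited a Cufflinks transcript list per library, with an FPKM and its confidence interval for each transcript. The deposited score column of these files was not used. FPKM are not counts, and depth is known only as the reads that the intervals imply.

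FPKM were summed per gene, with unannotated isoforms added to the gene whose exons they overlap on the same strand, and transcripts without overlap left out. Genes at 0.1 FPKM or more in at least 3 libraries were kept. Size factors by the median of ratios (0.885 to 1.05) scaled the libraries, which were tested on log2(FPKM + 0.1) with limma 3.58.1 in R 4.3.3 (lmFit and eBayes with trend and robust, Benjamini-Hochberg adjustment). The 6 libraries entered the comparison with MSCs, and all 9 the comparison with EGF and bFGF. Files were read with Python 3.11.15. In data simulated for the comparison with MSCs, limma recovered 63 of 100 genes given a log2 change of 1.5 and 87 of 100 given one of 3, with 8 false calls among the unchanged of 13503 genes.

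Symbols came only from pairs of ID and symbol in the study's supplementary tables and its main-text table of changed genes. Together these hold 3591 IDs, 2452 of them in the files. The named genes are the members of 30 lists and those of largest change among called genes with a symbol, and genes listed at 0 in a whole group get no fold. Between 0% and 50% of a list's members had a name. The members and lists were chosen with earlier results of these data known. A few genes are not reported here and were left out of the lists and their counts, but not of the fits. The share of reads outside annotated transcripts was computed from the reads implied by the intervals, a measure chosen after seeing the data. Alternatives were other pseudocounts, filters, scalings and transcript sets, a replicate block, and leaving out each library. Correlations of same-numbered libraries' deviations from their group means were -0.067 to -0.058 against MSCs, so the numbers were not taken as pairs.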

Additional observations from a re-analysis of the deposited data

Results flagged for a closer look

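Between the cells with and without IGF-1, 9 genes differed in a direct test in the fit of all 9 libraries, none of them with a symbol. Of the 3 with a transcript of 300 bases or more, ENSRNOG00000016033 was listed at 0 in every library without IGF-1, and its fitted log2 difference of 3.82 depends on the pseudocount and is no bound. ENSRNOG00000045543 was at 2.05, 2.27 and 2.13 FPKM with IGF-1 and 0.226, 0.245 and 0.195 FPKM without it, a log2 difference of 2.79 ± 0.31 (limma adjusted p = 0.0169). Its call ended under 9 alternatives, among them the replicate block (adjusted p = 0.131), a pseudocount of 0.01 (adjusted p = 0.911) and leaving out any 1 library of the 2 groups other than EGF+bFGF+IGF1 replicate 1 (2.74 to 2.82, adjusted p = 0.0589 to 0.0908), and its direction turned to -1.68 with annotated transcripts only. ENSRNOT00000072149 was at 9.15, 11.4 and 7.62 FPKM with IGF-1 and 36.9, 28.8 and 31.8 FPKM without it, a log2 difference of -1.81 ± 0.19 (limma adjusted p = 0.0128). This call ended with the replicate block (adjusted p = 0.131) and without EGF+bFGF replicate 3 (adjusted p = 0.0558), and the direction turned to 1.49 with annotated transcripts only. Its MSC libraries were at 12.9, 12.2 and 14.5 FPKM, near the cells with IGF-1.

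Reads of unannotated transcripts that overlap no annotated exon on the same strand are left out of the gene comparisons. They took a larger share in the EGF+bFGF+IGF1 libraries than in MSCs, by 3.15 percentage points. The shares were 8.83%, 8.6% and 6.56% in the cells with EGF and bFGF alone.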

How the results depend on the processing

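The 3041 genes called against MSCs became 1782 (855 higher, 927 lower) with a pseudocount of 1 and 1618 (835 higher, 783 lower) with annotated transcripts only. Leaving out 1 library gave 2672 to 2981 calls, 1416 to 1558 higher and 1256 to 1423 lower. The 9 calls between cells with and without IGF-1 became 5 (3 higher, 2 lower) with the replicate block, 3 (2 higher, 1 lower) with transcripts of 300 bases or more, 27 (15 higher, 12 lower) with annotated transcripts only, and 14 (10 higher) in the fit of the 6 libraries. There were 3 higher calls with a filter of 1 FPKM and 8 without a filter, and leaving out 1 library gave 8 to 26 calls, 3 to 9 higher and 4 to 17 lower. With annotated transcripts only, calls fell to 15 for mitosis, 2 for ERK response, 2 for hypoxia, 2 for neural crest and 3 for cartilage genes, and the direction turned for Egr3 (-0.22), Epas1 (-0.71), ENSRNOG00000045543 (-1.68) and ENSRNOT00000072149 (1.49). The first component held 58.6% with a pseudocount of 1 and 59.8% over all genes. The share of reads outside annotated transcripts was 62.4% against 41.6% by FPKM times length and 96.9% against 92% by summed FPKM. The cause of these changes was not tested.

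The replicate block gave 1534 genes called higher against MSCs. Of 97 called genes that the naming rule covers, 28 lost the call under some alternative with the direction kept. Of these, 13 lost it with a pseudocount of 1 and 14 with annotated transcripts only. Another 2, Egr3 and Epas1, are not in that count, as their calls ended and their directions turned with annotated transcripts only. Hes1, Btg2, Sdf2l1 and Kit, not called in the main fit, were called under some alternative. Depth limits genes below about 1 FPKM, and FPKM of transcripts under 300 bases are unreliable.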
